A study of Mus musculus with 18 samples.

Results

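The galactose-3-O-sulfotransferases of mouse ileum were followed as a family of 6 genes, *Gal3st1*, *Gal3st2*, *Gal3st2b*, *Gal3st2c*, *Gal3st3* and *Gal3st4*, which were taken by gene symbol from the 55487 genes of the count files. The family was selected on the genotype comparisons themselves, because *Gal3st2b* is among the genes that differ between genotypes, so its values by genotype are given as a description without p-values. Only 3 of the 6 members, *Gal3st1*, *Gal3st2* and *Gal3st2b*, had more than 3 CPM (counts scaled to the total of the library) in at least 4 libraries and entered the tests.

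Whole-thickness ileum of 18 mice on the C57BL/6J background was sequenced, with 1 library per mouse, in 3 groups of 6. All mice descended from a strain with the CAG-*Ppara*,-*EGFP* transgene, a FLAG-tagged *Ppara* with EGFP at the *Col1a1* locus that Cre turns into its active orientation. The IEC-*Ppara* heterozygous group (2 females, 4 males) and the IEC-*Ppara* homozygous group (2 females, 4 males) carried 1 or both copies of the transgene together with *Villin-CreERT2*, a tamoxifen-inducible Cre driven in the intestinal epithelium. The control group (3 females, 3 males) lacked *Villin-CreERT2*. The paper's wording places these controls among the mice with the transgene, without giving their copies of it. In comparisons with control, *Ppara* overexpression and the presence of Cre, with any allele travelling with it, thus cannot be told apart. All groups were 8 to 13 weeks old, ate chow, received tamoxifen at 100 mg/kg by intraperitoneal injection daily for 3 days, and were sampled 2 weeks later. *Ppara*, whose counts include the transgene, ranged over 25.8 to 47.4 CPM in the controls, 107 to 196 CPM in the heterozygous group and 184 to 279 CPM in the homozygous group.

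Enzymes of this family work in the Golgi and move a sulfate group from the donor PAPS (3′-phosphoadenosine 5′-phosphosulfate) to carbon 3 of a galactose. GAL3ST1, or cerebroside sulfotransferase, acts on the glycolipid galactosylceramide and makes sulfatide, whereas GAL3ST2, GAL3ST3 and GAL3ST4 act on galactose at the ends of glycoprotein chains. In the intestine such sulfated galactose is found on mucins, the heavily O-glycosylated proteins of the mucus layer. PPARα is a fatty acid-activated nuclear receptor that binds DNA with RXR at direct repeats of a hexamer spaced by a single base, called DR1.

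The *Gal3st2* genes form a cluster on mouse chromosome 1, all on the plus strand. In GRCm38, the build of the count files, *Gal3st2* (ENSMUSG00000094651) lies at chr1:93861306-93876494, *Gal3st2b* (ENSMUSG00000093805) at chr1:93918311-93942650 and *Gal3st2c* (ENSMUSG00000073608) at chr1:93990509-94017147. Each splits the greater part of its coding sequence over coding exons 2 to 4, whose lengths of 87, 259 and 816 bases are the same in the 3 genes, 1162 bases in all. Over these bases *Gal3st2* and *Gal3st2b* differed at 6 positions (99.5% identity), and each differed from *Gal3st2c* at 24 positions (97.9%). Coding exon 2 of the 3 genes, 87 bases long, shows how close the copies are. It lies at chr1:93872455-93872541 in *Gal3st2*, chr1:93938605-93938691 in *Gal3st2b* and chr1:94006918-94007004 in *Gal3st2c*, and capitals mark the 4 positions that are not the same in all 3 genes.
Gal3st2: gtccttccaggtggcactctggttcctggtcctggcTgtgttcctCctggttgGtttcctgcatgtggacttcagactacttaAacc
Gal3st2b: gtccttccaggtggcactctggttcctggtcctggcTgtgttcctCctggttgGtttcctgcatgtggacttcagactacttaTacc
Gal3st2c: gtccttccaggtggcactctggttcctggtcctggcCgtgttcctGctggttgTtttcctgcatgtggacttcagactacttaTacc

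This likeness bears on the counts, because reads that fit several genes were not counted. Of all stretches of 150 bases, the read length, in the main transcript of each gene, 57.8% in *Gal3st2* and 63.7% in *Gal3st2b* also occur in another gene, against 4.37% in *Gal3st2c* and 0% in *Gal3st1*. Within coding exons 2 to 4 the share of stretches found in 1 gene only was 31.8% for *Gal3st2* and 25.1% for *Gal3st2b*, while in the exons before them it was 100% for both. The longest run that the *Gal3st2* and *Gal3st2b* transcripts share is 933 bases. Counts of both genes rest on the stretches where the copies differ, and the mate of a read, which can place a pair, was not part of this calculation.

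Sequences around the annotated starts of the copies were compared next. The RefSeq promoter windows, 250 bases before to 50 after each start in GRCm38.p6, covered 4 of the 6 members, and the windows of *Gal3st2* and *Gal3st2b* shared no run longer than 7 bases. The stretches of those windows that precede the first annotated exon are shown for *Gal3st2* (chr1:93861094-93861305) and *Gal3st2b* (chr1:93918187-93918310), since these are the copies whose levels are compared. Capitals mark the closest match to the DR1 letters AGGTCANAGGTCA on either strand, which in *Gal3st2b* reads on the minus strand. RefSeq places the start of *Gal3st2b* at base 93918437, and that of *Gal3st2* at base 93861344, both inside the genes as the count files give them and not equally far, so the windows of the copies may not correspond, which limits the comparison of their letters and of their matches.
Gal3st2: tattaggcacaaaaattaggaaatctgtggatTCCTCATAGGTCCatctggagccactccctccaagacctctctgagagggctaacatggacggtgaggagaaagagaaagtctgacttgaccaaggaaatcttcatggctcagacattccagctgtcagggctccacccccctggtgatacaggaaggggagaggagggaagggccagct
Gal3st2b: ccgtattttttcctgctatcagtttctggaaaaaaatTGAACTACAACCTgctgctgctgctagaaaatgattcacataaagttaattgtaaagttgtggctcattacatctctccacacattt
The match had 4 mismatches in *Gal3st2* and 3 in *Gal3st2b*, and 24.6% of the 32851 promoter windows of the mouse hold a match with 3 or fewer. The closest match in *Gal3st2c* and in a window of *Gal3st1* also had 3 mismatches. The single hexamer AGGTCA, present on either strand in 16.3% of windows, occurred in none of the members' windows. These matches describe letters in short windows and show neither binding nor its absence.

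Of the 4 members with counts in every library, *Gal3st2b* had the widest gap between genotypes. Its level was 27.1, 28.7, 27.0, 23.5, 20.7 and 26.7 CPM in control libraries 1 to 6. In heterozygous libraries it was 41.1, 39.2, 58.1, 45.3, 64.2 and 56.6 CPM, and in homozygous libraries 74.2, 62.9, 65.8, 58.8, 50.8 and 56.2 CPM. Every IEC-*Ppara* library lay above every control library, whereas the heterozygous and homozygous ranges overlapped. The mean was 25.6 ± 2.94 CPM (SD, n = 6) in control, 50.8 ± 10.2 CPM in heterozygous and 61.5 ± 8.15 CPM in homozygous mice, from 904 to 3191 counts per library. On the log2 scale *Gal3st2b* was higher than in control by 1.02 ± 0.14 (SE) in heterozygous mice, a fold of 2.03, and by 1.26 ± 0.14 in homozygous mice, a fold of 2.40. The difference between homozygous and heterozygous mice was 0.24 ± 0.13.

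**Figure D1:**
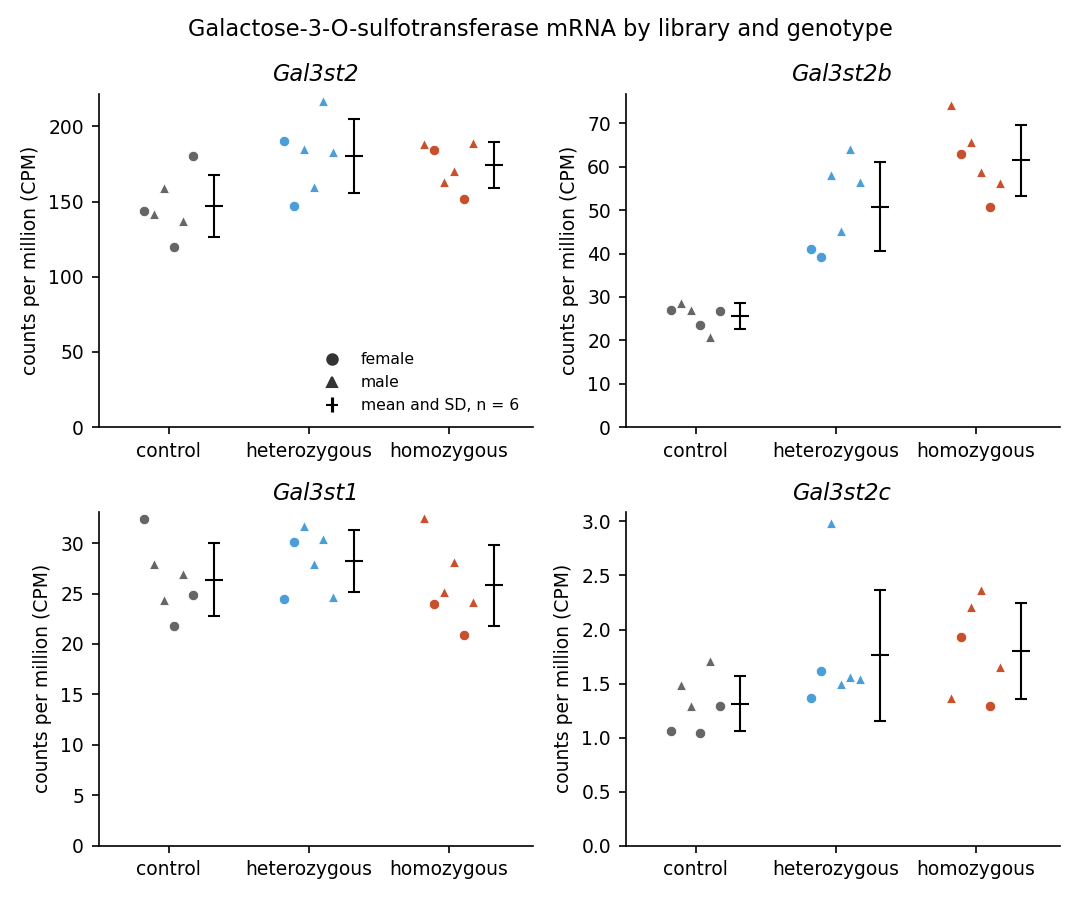
Level of *Gal3st2*, *Gal3st2b*, *Gal3st1* and *Gal3st2c* in CPM (vertical axes, each from 0) in every library by genotype, with circles for females, triangles for males and bars for mean and SD (n = 6). *Gal3st2b* of the 12 IEC-*Ppara* libraries lies between 39.2 and 74.2 CPM, above all control libraries, while the ranges of the other genes overlap between genotypes.

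*Gal3st2*, the most abundant member, stood at 144, 142, 159, 120, 137 and 180 CPM in control libraries. It reached 190, 147, 185, 160, 217 and 183 CPM in heterozygous libraries and 188, 184, 163, 170, 152 and 189 CPM in homozygous libraries. The groups overlapped, with 4 heterozygous and 3 homozygous libraries above the highest control library. The mean was 147 ± 20.5 CPM in control, 180 ± 24.3 CPM in heterozygous and 174 ± 15.2 CPM in homozygous mice (SD, n = 6). The log2 difference from control was 0.33 ± 0.12 (SE) in heterozygous and 0.24 ± 0.12 in homozygous mice.

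*Gal3st2c*, the third gene of the cluster, was below the CPM filter in all mice. It gave 1.06, 1.49, 1.29, 1.04, 1.71 and 1.29 CPM in control libraries, from 40 to 81 counts. Heterozygous libraries gave 1.37, 1.62, 2.99, 1.50, 1.56 and 1.54 CPM, and homozygous libraries 1.37, 1.93, 2.21, 2.37, 1.29 and 1.65 CPM. No library reached 3 CPM and the 3 ranges overlapped. A fit without the filter gave log2 differences from control of 0.46 ± 0.22 (SE) in heterozygous and 0.45 ± 0.22 in homozygous mice. In the heterozygous group library 3 stood apart, and the group mean was 1.77 CPM with it and 1.52 CPM without it.

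*Gal3st1* (ENSMUSG00000049721, chr11:3983636-3999326, plus strand), the sulfatide-making enzyme, overlapped across all genotypes. Its mean was 26.4 ± 3.65 CPM in control, with a range of 21.8 to 32.4, then 28.2 ± 3.08 CPM in heterozygous, with a range of 24.5 to 31.7, and 25.8 ± 4.02 CPM in homozygous mice, with a range of 20.9 to 32.5 (SD, n = 6). The log2 difference from control was 0.13 ± 0.11 (SE) in heterozygous and -0.03 ± 0.11 in homozygous mice.

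*Gal3st3* and *Gal3st4* were barely seen. *Gal3st3* (ENSMUSG00000047658, chr19:5298331-5308738, plus strand) had 59 counts over all 18 libraries, with 0 to 10 per library and 3 libraries at 0. Since 3 counts correspond to between 0.0596 and 0.0779 CPM, no fold is given here. *Gal3st4* (ENSMUSG00000075593, chr5:138264921-138272840, minus strand) had 0 counts in 17 libraries and 2 counts in the remaining library. Of its 3252 exon bases, 3221 overlap exons of *Gm43720*, and only 31 are free of any other gene. Reads on overlapped bases were not counted for *Gal3st4*, so its zeros do not measure its expression.

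Of the 3 members tested, 1, *Gal3st2b*, was called in homozygous against control mice and 1, again *Gal3st2b*, in heterozygous against control mice by edgeR's quasi-likelihood test at an adjusted p under 0.05. These comparisons called 0.403% and 0.293% of the 12645 genes tested, and at the study's own threshold, an unadjusted p under 0.001, 0.720% and 0.546%. Homozygous against heterozygous mice gave 0 called genes by edgeR (0%; 965 genes at an unadjusted p under 0.05 and 9 called by DESeq2), and 0.166% passed the unadjusted 0.001, none of them a member. In CPM, 0.593% of tested genes were higher in every homozygous than in every control library, 0.293% in every heterozygous than in every control library, and 0.134% in every homozygous than in every heterozygous library. *Gal3st2b* belonged to the first and second of these sets. Since the family was selected on these contrasts, nothing is read from the counts. The comparisons with control share the same 6 control libraries.

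Within the cluster *Gal3st2b* was higher relative to *Gal3st2* in IEC-*Ppara* mice, while *Gal3st2* itself was not lower than in control. The log2 difference of *Gal3st2* from control was 0.33 ± 0.12 (SE) in heterozygous and 0.24 ± 0.12 in homozygous mice. The ratio of *Gal3st2b* counts to *Gal3st2* counts was 0.188, 0.201, 0.170, 0.196, 0.152 and 0.149 in control libraries. It was 0.216, 0.266, 0.313, 0.283, 0.296 and 0.309 in heterozygous libraries, and 0.394, 0.343, 0.405, 0.345, 0.335 and 0.298 in homozygous libraries. All IEC-*Ppara* libraries were above all controls, and the heterozygous range overlapped the homozygous range. The ratio holds *Gal3st2b*, the gene on which the family was selected, so this separation is a description and not a further result. The means were 0.176 ± 0.0226, 0.281 ± 0.0360 and 0.353 ± 0.0398 (SD, n = 6 each). Being formed within a library, the ratio needs no scaling between libraries. *Gal3st2b* made up 14.8% ± 1.63, 21.7% ± 2.20 and 25.8% ± 2.14 of the cluster's counts in control, heterozygous and homozygous mice, and *Gal3st2c* between 0.520% and 1.21% in any library.

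**Figure D2:**
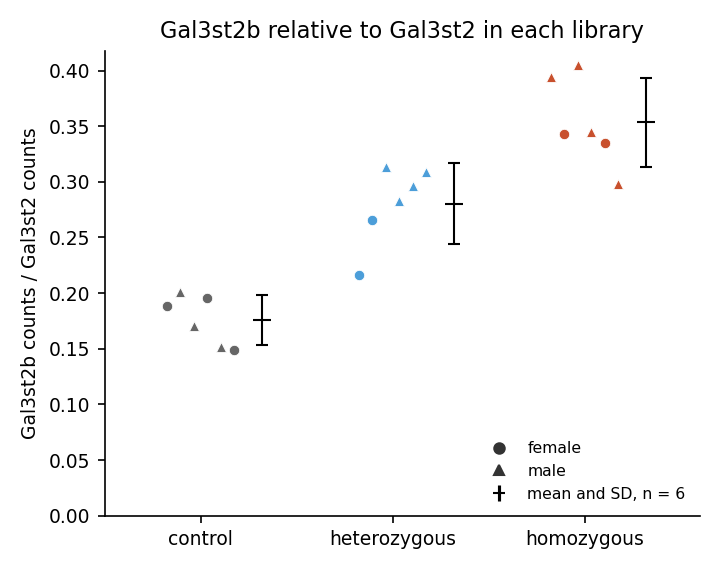
Ratio of *Gal3st2b* counts to *Gal3st2* counts (vertical axis, no unit, from 0) in each library by genotype, with circles for females, triangles for males and bars for mean and SD (n = 6). Control libraries lie between 0.149 and 0.201, heterozygous between 0.216 and 0.313 and homozygous between 0.298 and 0.405. *Gal3st2b* was selected for its difference between genotypes.

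Levels of different genes were compared per length, as FPKM, here the CPM of a gene over its exon length in kilobases as the count files give it. In control ileum the order was *Gal3st2* at 48.0 ± 6.69, *Gal3st1* at 12.9 ± 1.79, *Gal3st2b* at 9.32 ± 1.07, *Gal3st2c* at 0.136 ± 0.0264 and *Gal3st3* at 0.0360 ± 0.0305 FPKM (SD, n = 6). In heterozygous and homozygous ileum *Gal3st2b*, at 18.5 ± 3.73 and 22.4 ± 2.97 FPKM, stood above *Gal3st1*, at 13.8 ± 1.51 and 12.6 ± 1.97 FPKM. The FPKM ranges of these neighbours in the order, 7.55 to 10.4 against 10.7 to 15.9, did not overlap in control mice, with *Gal3st1* the higher, and in homozygous mice, 18.5 to 27.0 against 10.3 to 15.9, with *Gal3st2b* the higher. In heterozygous mice they overlapped, at 14.3 to 23.3 against 12.0 to 15.6. *Gal3st2* exceeded *Gal3st2b* per length by 5.17 ± 0.682 times in control, 3.25 ± 0.479 times in heterozygous and 2.57 ± 0.291 times in homozygous mice. With length counted only as stretches of 150 bases that no other gene shares, an alternative chosen after the data were seen, these were 4.74, 2.97 and 2.35 times, and the control means of *Gal3st1* and *Gal3st2b* were 15.3 and 27.5 CPM per kilobase. The order of *Gal3st1* and *Gal3st2b* in control mice thus turns with the length used.

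Sex was not used to select the family and was tested in 7 females and 11 males with genotype in the model. edgeR called 0 of the 3 tested members, with 0 at an unadjusted p under 0.05 and 0 called by DESeq2 or limma-voom, while 0.0554% of all tested genes were called. For *Gal3st2b* the log2 difference of females from males was -0.18 ± 0.11 (SE, 95% interval -0.42 to 0.05, adjusted p = 1.000). The difference was -0.05 ± 0.11 for *Gal3st2* (-0.27 to 0.18, adjusted p = 1.000) and -0.10 ± 0.10 for *Gal3st1* (-0.30 to 0.10, adjusted p = 1.000). In heterozygous mice both females had 39.2 and 41.1 CPM of *Gal3st2b*, below the 4 males at 45.3 to 64.2 CPM, while in homozygous mice, at 50.8 to 62.9 and 56.2 to 74.2 CPM, and in control mice females and males overlapped, contrasts within a genotype that were not tested. Whether the difference of homozygous from control mice is unequal in females and males was tested as an interaction, which called 0 of 12645 genes by edgeR (0%; 249 genes at an unadjusted p under 0.05, 0 called by DESeq2). For *Gal3st2b* it was -0.16 ± 0.24, with a 95% interval of -0.67 to 0.36, which leaves room for sizeable sex differences, and it moved from -0.38 without homozygous library 2 to 0.01 without homozygous library 5. The interaction was -0.27 for *Gal3st1* and -0.09 for *Gal3st2*. On leaving out 1 library these ran from -0.43 to -0.09 and from -0.29 to 0.1.

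Genes beside the cluster were examined because the controls also lack the Cre allele. Within 250 kb of the cluster lie 15 annotated genes, of which 7 were tested. The 7 all lie on the side before *Gal3st2*, and no gene on the far side of the cluster was tested. edgeR called 0 of the 7 in each of the 3 comparisons of genotypes, and DESeq2 and limma-voom called 0. At an unadjusted p under 0.05 by edgeR there were 1, 1 and 0 of the 7 in homozygous against control, heterozygous against control and homozygous against heterozygous mice. Beside these stood 8.02%, 5.22% and 7.63% of all tested genes. The log2 differences of the 7 genes from control ranged from -0.08 to 0.25 in homozygous and from -0.13 to 0.27 in heterozygous mice, with *Bok*, a BCL2 family member, at the upper end of both. The nearest tested gene, *D2hgdh*, a mitochondrial dehydrogenase of 2-hydroxyglutarate, differed by 0.06 ± 0.09 (SE) and 0.13 ± 0.09. Between the copies lie the pseudogenes *Gm18666* and *Gm7889*, with at most 12 and 7 counts in any library. On the far side, *Neu4*, a sialidase, had at most 6 counts.

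**Figure D3:**
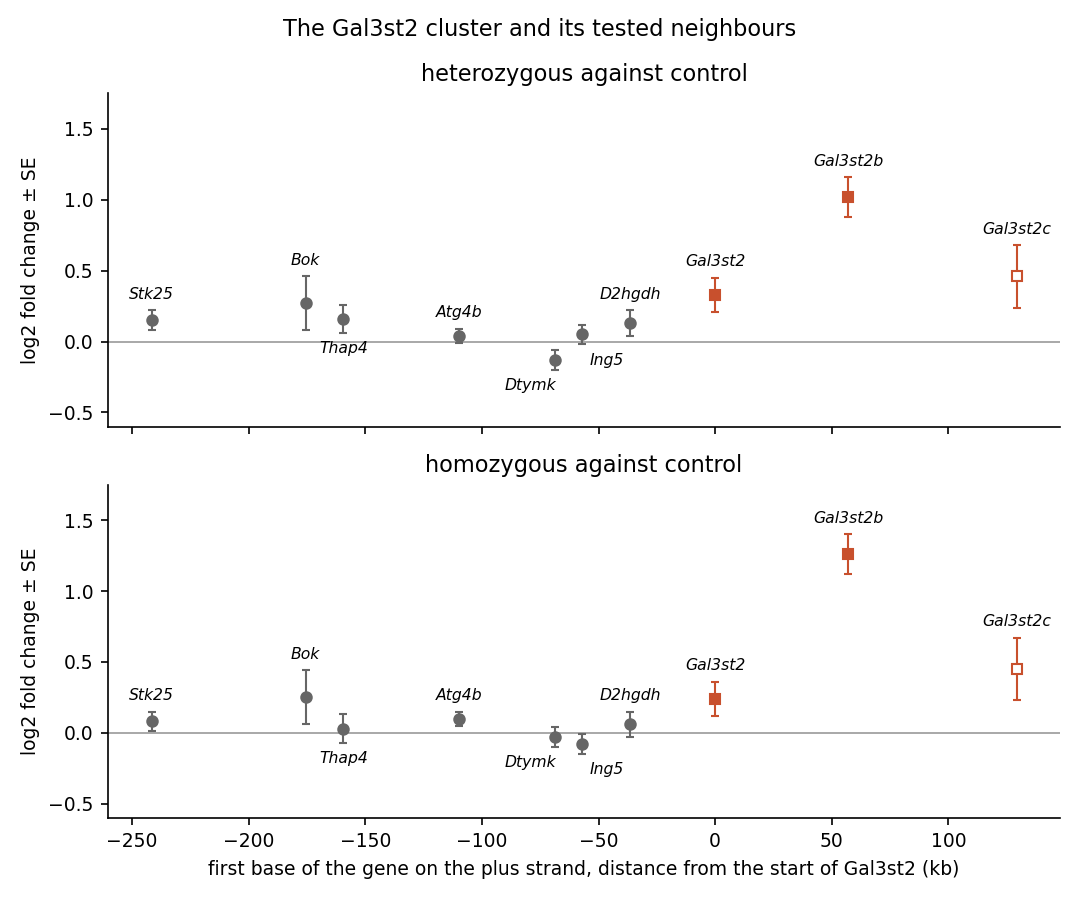
Log2 fold change from control with its SE (vertical axes) against the distance of each gene from the start of *Gal3st2* in kb (horizontal axis) for heterozygous (top) and homozygous (bottom) mice. Squares are members of the cluster, the open square being *Gal3st2c* from the fit without the CPM filter, and circles are the 7 tested neighbours, which lie between -0.13 and 0.27, and *Gal3st2b*, selected for its difference, is at 1.02 and 1.26.

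The steps around the transfer itself were described by lists of genes. Of 113 genes in 5 lists, 88 were tested, and edgeR called 0 of the 88 in homozygous against control, heterozygous against control and homozygous against heterozygous mice. At an unadjusted p under 0.05 there were 9, 2 and 5 of them, or beside these 8.02%, 5.22% and 7.63% of all tested genes. With edgeR's p unadjusted and under 0.001, there were 3 of the 88 in homozygous against control mice (*Chst8*, *Fa2h* and *Sulf2*, all higher), beside 0.720% of all tested genes, and 0 in the other comparisons. DESeq2 called 3, 1 and 0, beside 136, 82 and 9 of all 12645 genes tested. With limma-voom 0, 0 and 0 were called, beside 51, 34 and 1 of all genes tested. The median log2 difference of the 88 genes was 0.01 in both comparisons with control, against 0.00 over all tested genes.

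In the supply of PAPS, 10 of 13 listed genes were tested, with a median log2 difference of -0.03 in homozygous and 0.03 in heterozygous against control mice. The most abundant were the sulfate transporters *Slc26a2*, at 545 ± 60.8, 591 ± 107 and 541 ± 103 CPM in control, heterozygous and homozygous mice (SD, n = 6), and *Slc13a1*, at 502 ± 113, 472 ± 108 and 476 ± 125 CPM. *Slc26a6*, an anion exchanger, stood at 377 ± 47.8, 387 ± 25.6 and 357 ± 40.0 CPM. The log2 differences of these genes from control lay between -0.08 and 0.15, each with an SE of at least 0.11.

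Among other Golgi sulfotransferases 17 of 32 were tested, with medians of 0.05 in homozygous and -0.06 in heterozygous mice. *Ndst1* and *Ndst2*, which deacetylate and N-sulfate heparan sulfate, had log2 differences of -0.02 ± 0.11 and -0.05 ± 0.06 (SE) in homozygous mice, and *Hs6st1*, a heparan sulfate 6-O-sulfotransferase, 0.04 ± 0.07. The lowest adjusted p of the list was that of *Chst8*, a sulfotransferase of N-acetylgalactosamine, chosen here after its values were seen, at 0.67 ± 0.16 in homozygous (adjusted p = 0.0777 by edgeR, 0.00736 by DESeq2 and 0.0388 by edgeR with sex as a covariate) and 0.57 ± 0.16 in heterozygous mice (adjusted p = 0.256). The lowest value was that of *Chst3*, a chondroitin 6-O-sulfotransferase, also chosen after its values were seen, at -2.93 ± 1.12 in homozygous and -1.65 ± 1.06 in heterozygous mice (adjusted p = 0.507 and 1.000).

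Mucin-type O-glycan assembly, which builds the chains that carry terminal galactose, had 39 of 43 genes tested and medians of 0.01 and 0.03. *St3gal4*, which places sialic acid on carbon 3 of galactose, the same carbon that GAL3ST enzymes sulfate, was the most abundant at 1184 ± 132, 1261 ± 131 and 1245 ± 134 CPM in control, heterozygous and homozygous mice (SD, n = 6). Its log2 difference was 0.07 ± 0.11 (SE) in homozygous and 0.12 ± 0.11 in heterozygous mice. *B4galnt2*, which adds N-acetylgalactosamine, and *Galnt6*, which starts chains, differed by 0.01 ± 0.11 and 0.05 ± 0.07 in homozygous mice. The lowest adjusted p of the list was that of *Gcnt1*, an enzyme that branches O-glycan cores, chosen after its values were seen, at -0.70 ± 0.20 in homozygous (adjusted p = 0.226) and -0.76 ± 0.20 in heterozygous mice (adjusted p = 0.235 by edgeR and 0.0402 by DESeq2). The highest value, also chosen after it was seen, was that of *Fut2*, a fucosyltransferase, at 1.26 ± 0.51 in homozygous (adjusted p = 0.553) and 0.03 ± 0.51 in heterozygous mice.

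The sphingolipid partners of GAL3ST1 had 10 of 11 genes tested, with medians of 0.05 and 0.02. *Psap*, the precursor of saposins, *Cers2*, a ceramide synthase, and *Ugcg*, the glucosylceramide synthase, had log2 differences of 0.07 ± 0.10, -0.05 ± 0.08 and -0.02 ± 0.12 (SE) in homozygous mice. *Fa2h*, a fatty acid 2-hydroxylase, chosen here after its values were seen, had 1.95 ± 0.49 in homozygous and 0.74 ± 0.48 in heterozygous mice, a larger value than that of *Gal3st2b* in homozygous mice but with a wider error, and was not called by edgeR (adjusted p = 0.121 and 1.000) while DESeq2 called it in homozygous mice (adjusted p = 0.00309). The paper lists *Fa2h* among its differentially expressed genes. The list of sulfatases, which remove sulfate, and of their modifying factors *Sumf1* and *Sumf2* had 13 of 15 genes tested, with medians of 0.02 and -0.04. The sulfatase-activating *Sumf1* differed by -0.05 ± 0.06 (SE) in homozygous mice. *Sulf2*, an extracellular heparan sulfate 6-O-endosulfatase, stood at 76.0 ± 14.0, 88.1 ± 16.6 and 111 ± 11.2 CPM (SD, n = 6), with a log2 difference of 0.55 ± 0.13 in homozygous mice that missed the threshold of edgeR (adjusted p = 0.0897) and passed it in DESeq2 (adjusted p = 0.00762) and in edgeR with a replicate block (adjusted p = 0.00874).

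**Figure D4:**
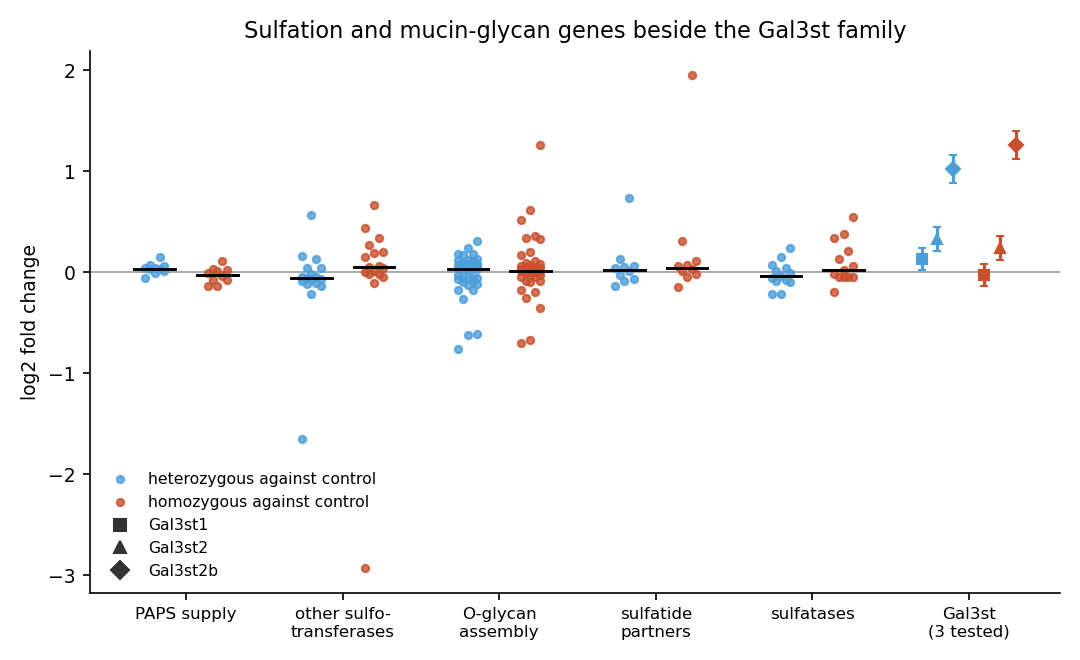
Log2 fold change from control (vertical axis) of the 88 tested genes in 5 lists and of the 3 tested *Gal3st* members, with heterozygous in blue, homozygous in red, each point 1 gene, black lines for list medians and bars on the members for SE. List medians lie between -0.06 and 0.05, single list genes run from -2.93 (*Chst3*) to 1.95 (*Fa2h*), and *Gal3st2b*, selected for its difference, is at 1.02 and 1.26.

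How the members varied among mice of the same genotype was examined in 27 relations over 6 libraries each, with exact two-sided permutation tests. The values were log2 CPM with TMM scaling, and a marker score was the mean log2 CPM of the tested markers of a cell type. *Gal3st2* and *Gal3st2b* gave r = 0.701 in control, 0.801 in heterozygous and 0.548 in homozygous mice (exact permutation p = 0.131, 0.0514 and 0.268, adjusted p = 0.297, 0.277 and 0.452, rho = 0.886, 0.657 and 0.314 with exact p = 0.0333, 0.175 and 0.564). Without the pair of libraries farthest from the median of *Gal3st2*, r was 0.594, 0.170 and 0.377. None of these passed the adjusted threshold.

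The relation that passed was that of *Gal3st2* with the enterocyte score in control mice, with r = 0.943 (exact permutation p = 0.00139, the smallest these permutations can give, adjusted p = 0.0375) and rho = 1.00 (p = 0.00278), and r = 0.845 without the 2 farthest libraries. This call depended on the scale, since on the deposited log2 CPM 0 of the 27 relations passed and on TMM CPM 2 did. In heterozygous and homozygous mice r was 0.875 and 0.756 (exact permutation p = 0.0306 and 0.0875, adjusted p = 0.206 and 0.277, rho = 0.771 and 0.543 with exact p = 0.103 and 0.297). Leaving out the 2 libraries farthest in the enterocyte score gave 0.281 and 0.784, so that the heterozygous relation rests on those libraries. *Gal3st2b* gave r = 0.741, 0.949 and 0.673 with the enterocyte score in control, heterozygous and homozygous mice (exact permutation p = 0.0750, 0.00833 and 0.132, adjusted p = 0.277, 0.113 and 0.297, rho = 0.886, 0.886 and 0.657 with exact p = 0.0333, 0.0333 and 0.175), and 0.831, 0.832 and 0.943 without the 2 farthest.

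The goblet score, from mucus genes such as *Muc2*, gave no relation past the adjusted threshold. Its r with *Gal3st2* was 0.722, 0.0489 and 0.508, and with *Gal3st2b* 0.402, -0.396 and -0.0914 in control, heterozygous and homozygous mice (exact permutation p from 0.103 to 0.918, adjusted p from 0.277 to 0.918). The smooth muscle score gave r = -0.864, -0.111 and -0.637 with *Gal3st2* (exact permutation p = 0.0125, 0.782 and 0.103, adjusted p = 0.113, 0.845 and 0.277) and -0.620, -0.325 and 0.135 with *Gal3st2b* (exact permutation p = 0.169, 0.603 and 0.776, adjusted p = 0.352, 0.775 and 0.845). *Ppara* gave r = 0.499, 0.834 and -0.606 with *Gal3st2b* (exact permutation p = 0.296, 0.0667 and 0.204, adjusted p = 0.470, 0.277 and 0.394) and 0.172, 0.563 and -0.141 with *Gal3st2* (exact permutation p = 0.744, 0.243 and 0.782, adjusted p = 0.845, 0.438 and 0.845). Over these 18 relations rho lay between -0.943 and 0.771 (exact permutation p from 0.0167 to 1.00), while r after dropping the 2 farthest libraries lay between -0.977 and 0.790, with another sign in 8 of them.

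**Figure D5:**
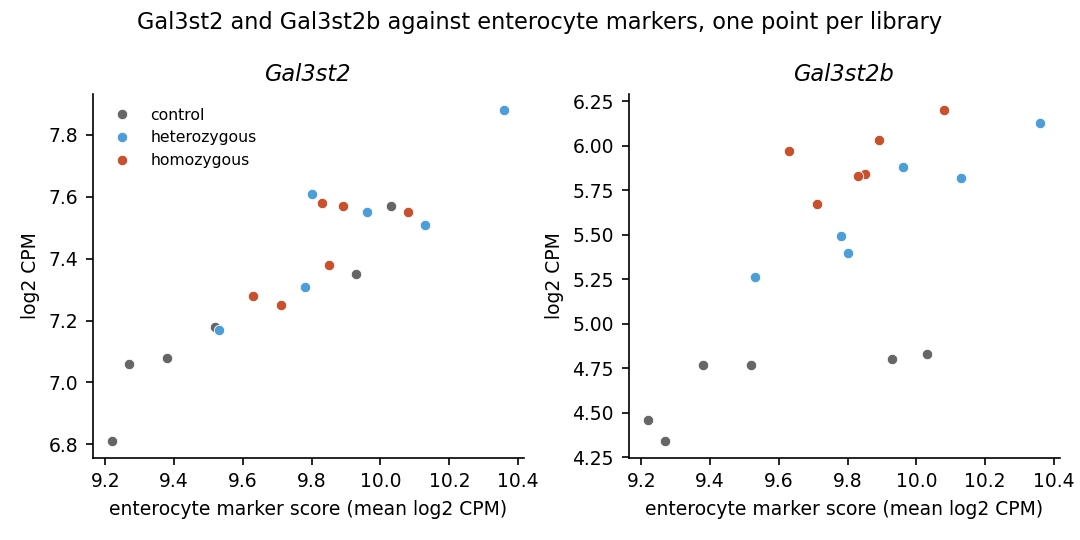
Log2 CPM of *Gal3st2* (left) and *Gal3st2b* (right) against the enterocyte marker score (mean log2 CPM), 1 point per library, colored by genotype. *Gal3st2* follows the score within control mice (r = 0.943), and *Gal3st2b* of IEC-*Ppara* libraries lies above that of all controls. The part of the score in that difference was not tested.

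Marker levels of other cell types also differed between libraries. The enterocyte score ranged from 9.22 to 10.03 in control, 9.53 to 10.36 in heterozygous and 9.63 to 10.08 in homozygous libraries. The median log2 difference of its 7 tested markers from control was 0.22 in heterozygous and 0.13 in homozygous mice, the same sign as that of *Gal3st2*. Of these markers edgeR called 1, *Fabp2*, a fatty acid-binding protein named after its values were seen, in homozygous mice (0.94 ± 0.14, adjusted p = 0.00122). The markers went both ways in homozygous mice. *Apoa4* was at 1.31 ± 0.49 (SE), not called, and *Alpi* and *Apoa1* were at 0.13 ± 0.13 each. *Sis*, *Slc5a1* and *Mep1a* were below control, at -0.36 ± 0.25, -0.14 ± 0.23 and -0.14 ± 0.09. The summed level of the 6 smooth muscle markers, in CPM, ran from 400 to 4754 in control libraries, from 515 to 3436 in heterozygous libraries and from 3198 to 7453 in homozygous libraries, with a median log2 difference from control of -0.25 in heterozygous and 0.59 in homozygous mice, and that of the 8 goblet markers from 15300 to 25460, 20315 to 28214 and 16756 to 22540 CPM. The 5 B cell markers summed to 10.6 to 347, 7.88 to 197 and 6.76 to 58.4 CPM in control, heterozygous and homozygous libraries, with a median log2 difference from control of -1.47 in heterozygous and -3.03 in homozygous mice, and the 4 T cell markers to 10.6 to 35.5, 8.12 to 22.2 and 8.98 to 14.9 CPM, with medians of -0.68 and -0.81 over the 3 tested. The ileal markers *Fabp6* and *Slc10a2* were present in every library, at 1914 CPM or more and 355 CPM or more. *Fabp6* averaged 4269 ± 871 CPM in control, 3992 ± 684 CPM in heterozygous and 2897 ± 978 CPM in homozygous mice (SD, n = 6), with a log2 difference of -0.56 ± 0.19 in homozygous mice that edgeR did not call (adjusted p = 0.401). The part of these shifts in the levels of *Gal3st2* and *Gal3st2b* was not tested, and fewer cells of a type cannot be told from less RNA per cell.

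Over the 18 libraries the genes whose log2 CPM followed *Gal3st2b* most closely were *Cyp2c65*, a cytochrome P450 (r = 0.98), *Hsd17b11*, a lipid droplet dehydrogenase (r = 0.96), *Aqp3*, a glycerol and water channel (r = 0.96), *Fabp1*, a fatty acid-binding protein (r = 0.95), and *Slc25a20*, the mitochondrial acylcarnitine carrier (r = 0.95). All 5 have a lower mean in control than in heterozygous and in heterozygous than in homozygous mice, as for *Fabp1* at 10.8, 111 and 158 CPM and *Cyp2c65* at 47.6, 105 and 118 CPM. *Ppara* ranked 8th and *Gal3st2* 129th (r = 0.94 and 0.70). After the genotype means were subtracted the leading genes were *Ifngr2*, an interferon-γ receptor chain (r = 0.91), *Fuca2*, a fucosidase (r = 0.88), *Tmem243* (r = 0.88), *Ihh*, a hedgehog ligand (r = 0.87), and *Cyp2c65* (r = 0.87), while *Ppara* had r = 0.46 and *Gal3st2* 0.70. These are likenesses over shared libraries, given without a test.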

How the data were processed

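Whole-thickness ileum RNA of 18 mice was poly-A selected and sequenced in paired reads of 150 bases. The authors aligned reads with STAR to GRCm38 (Ensembl) and made gene counts with featureCounts from uniquely aligned, unambiguous reads; strand setting was not given in the sources used here. The CPM deposited by the authors are counts over library totals, their deposited log2 values are moderated log2 CPM, and their deposited FPKM also divide by gene length. Libraries held 38528522 to 50376371 counts. FPKM were recomputed from the counts with the exon length of the count files, and floors of 3 counts cover counting error only.

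Genes over 3 CPM in at least 4 libraries (13709) were kept, and the 12645 protein-coding genes were fitted with edgeR 4.0.16 in R 4.3.3 (TMM, glmQLFit, glmQLFTest, 1 coefficient per genotype, 18 libraries), with Benjamini-Hochberg adjustment over all genes tested and calls at an adjusted p under 0.05. The procedure was tested on simulated data. SE is the log2 fold change over the root of F. Sex was added as a term for the sex tests. The prior count of the log2 CPM behind scores was 2. Alternatives were DESeq2 1.42.0, limma-voom (limma 3.58.1), other scalings and filters, all biotypes, covariates, a replicate block and leaving out each library. Sequences came from GENCODE transcripts and RefSeq windows of GRCm38. Mice are separate animals. No 2 libraries of a group agreed within sampling noise.

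Members and lists were chosen with earlier results of these data known. Named were all members, the 3 most abundant tested genes of each list, any gene called in the lists or among the neighbours, and the 5 genes most like *Gal3st2b* by each measure; 1 gene that this rule names is not reported here. 2 of the 113 listed symbols, *Bpnt2* and *Sts*, had no row under that name.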

Additional observations from a re-analysis of the deposited data

Results flagged for a closer look

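Each member's 6 libraries per genotype were screened for a library far from the others by Dixon's criterion at 95%, in 16 sets of libraries with any spread; chance marks about 5% of sets. *Gal3st2c* in heterozygous library 3 was 2.99 CPM, against 1.62 CPM in the next library and 1.37 CPM in the lowest. *Gal3st4* in homozygous library 5 was 0.0507 CPM, from 2 counts, where the other 5 homozygous libraries were at 0.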

How the results depend on the processing

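All 261 alternative fold changes of *Gal3st1*, *Gal3st2* and *Gal3st2b* between genotypes lay within 1 SD of replicates of the values reported. For *Gal3st2b* they spanned 1.20 to 1.31 in homozygous and 0.92 to 1.09 in heterozygous against control mice, and 0.17 to 0.34 between the IEC-*Ppara* groups; *Gal3st1* in homozygous mice spanned -0.11 to 0.04, with both signs. All 153 alternative sex results of members stayed without a call, but their sizes moved, with the female against male difference of *Gal3st2* from -0.13 to 0.02 (above 0 without heterozygous library 2) and that of *Gal3st2b* from -0.37 (no genotype term) to -0.12 (without heterozygous library 2). The number of genes called in homozygous against control mice was 136 with DESeq2, and 42 to 65 on leaving out 1 library. In heterozygous against control mice it was 82 with DESeq2, 23 with only the 12 libraries compared and 22 with a replicate block, and 26 to 49 on leaving out 1 library. Homozygous against heterozygous mice gave 9 with DESeq2, 1 with limma-voom and 1 with library size only, and 0 to 2 on leaving out 1 library (1 without control library 2, control library 4 or homozygous library 1, and 2 without heterozygous library 4). Females against males gave 3 in place of 7 with at least 10 counts in every library. Of the 88 sulfation and glycan genes, DESeq2 called 3 in homozygous against control mice (*Sulf2*, *Chst8* and *Fa2h*) and 1 in heterozygous mice (*Gcnt1*), sex as a covariate 1 (*Chst8*), and the replicate block 1 (*Sulf2*, edgeR adjusted p = 0.00874); *Chst8*, *Fa2h* and *Gcnt1* were named after their values were seen. Leaving out 1 library gave 0 to 1 in both comparisons with control, with *Fa2h* without control library 5, *Sulf2* without control library 6 or heterozygous library 6, *Chst8* without heterozygous library 3 or homozygous library 5, and *Gcnt1* without heterozygous library 1. The causes were not tested. Replicate numbers showed no clear pairing of the mice in expression. The correlation of same-numbered deviations passed 0.1 in 9 of 18 pairs (from -0.606 to 0.644), and 2 of 18 libraries were closest to their own number. Shared litters or batches were not tested, and the paper states that littermates were used. With the replicate block *Gal3st2b* differed from control by 1.27 and 1.02. Of 54 alternative relations 52 kept their call; that of *Gal3st2* with the enterocyte score in control mice lost it on the deposited log2 CPM (r = 0.911), and that of *Gal3st2b* in heterozygous mice gained it on TMM CPM (r = 0.943, exact permutation, adjusted p = 0.0375). Depth limits *Gal3st2c* and *Gal3st3*, overlap with another gene limits *Gal3st4*, and shared sequence limits the counts of *Gal3st2* and *Gal3st2b*.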
